A study of Homo sapiens with 6 samples.

Results

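The genes described here are the parts of the D cyclin pathway at the start of the cell cycle: the D cyclins CCND1, CCND2 and CCND3, their kinases CDK4 and CDK6, the INK4 inhibitors CDKN2C and CDKN2D, the retinoblastoma gene RB1, and the E cyclins CCNE1 and CCNE2. They were picked by gene symbol, which gave 10 of the 23844 genes in the tables. PolyA RNA was sequenced from the human B cell lines DOHH2 and DAUDI, with 1 library per culture and no replicate library. The 6 libraries are DOHH2, a follicular lymphoma line, resistant to ibrutinib, resistant to idelalisib, or labelled WT, and DAUDI, a Burkitt lymphoma line, in the same 3 states. Ibrutinib inhibits the kinase BTK and idelalisib inhibits the delta isoform of PI3K, both of which act downstream of the B cell receptor. Both lines came from ATCC; the labels give no dose, duration of selection or clone, and do not say whether drug was present at harvest. Levels are FPKM, fragments scaled to transcript length and to mapped fragments, summed over the isoforms of a gene, so that levels of different genes can be set beside each other.

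D cyclins bind CDK4 or CDK6, and the complexes phosphorylate the retinoblastoma protein, which releases E2F factors and lets cells enter S phase. INK4 proteins bind CDK4 and CDK6 and keep them from their cyclins, and E cyclins act later, with CDK2. In B cells, cyclin D2 is known as the D cyclin induced by B cell receptor signalling in resting cells, and cyclin D3 as the one that germinal centre B cells depend on.

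The libraries labelled WT did not group with their line. Across 12186 genes of 300 nt or more, log2(FPKM + 1) of the DOHH2 and DAUDI libraries labelled WT correlated with r = 0.991, against 0.722 to 0.737 between a resistant library and the library labelled WT of its own line. The resistant libraries correlated with r = 0.992 within DOHH2, 0.980 within DAUDI and 0.838 to 0.856 between the lines. The libraries labelled WT differed by at least 1 on the log2 scale in 60 genes, against 77 between the resistant DOHH2 libraries and 342 between those of DAUDI. The limma fits below take the libraries labelled WT as independent, which was not tested. If they are not, the errors given could be too small or too large, and which was not tested. Whether the libraries labelled WT come from the cells that the resistant cultures were made from was not tested, so in these contrasts drug resistance and cell origin cannot be told apart. Below, with ibrutinib or with idelalisib names the resistance of the cultures compared, not an effect of the drug. All 6 libraries held B lineage markers, with 7 or 8 of 8 at 1 FPKM or more and a summed level of 979 to 1628 FPKM. Germinal centre markers summed to 433 to 529 FPKM in the resistant libraries and to 109 and 113 FPKM in those labelled WT, while markers of activated or memory B cells and plasmablasts summed to 135 to 578 FPKM in the resistant libraries and to 958 and 1024 FPKM in those labelled WT. Of 8 myeloid markers, which summed to 24.5 to 29.3 FPKM in the resistant libraries and to 0.222 and 0.916 FPKM in those labelled WT, 1 to 4 reached 1 FPKM in a resistant library and none did in those labelled WT. T and NK cell markers summed to 1.49 to 7.64 FPKM over all 6 libraries. Stromal and epithelial markers summed to at most 0.779 FPKM in the resistant libraries and to 28.0 and 27.4 FPKM in the DOHH2 and DAUDI libraries labelled WT, nearly all of it CDH1, the E-cadherin gene. Erythroid markers summed to 5.60 FPKM in the DOHH2 library labelled WT, with HBB and HBA1 above 1 FPKM, and to at most 0.114 FPKM in each of the other 5 libraries. The part of these differences in the results below was not tested.

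The 2 libraries labelled WT held almost only CCND2, and the 4 resistant libraries almost only CCND3, in both lines and with both drugs. Among the D cyclins, CCND3 made up 98.6% of the summed FPKM in ibrutinib-resistant DOHH2, 98.7% in idelalisib-resistant DOHH2 and 3.05% in the DOHH2 library labelled WT. In DAUDI it made up 99.9% in the ibrutinib-resistant library, 99.9% in the idelalisib-resistant library and 5.96% in the library labelled WT.

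**Figure D1:**
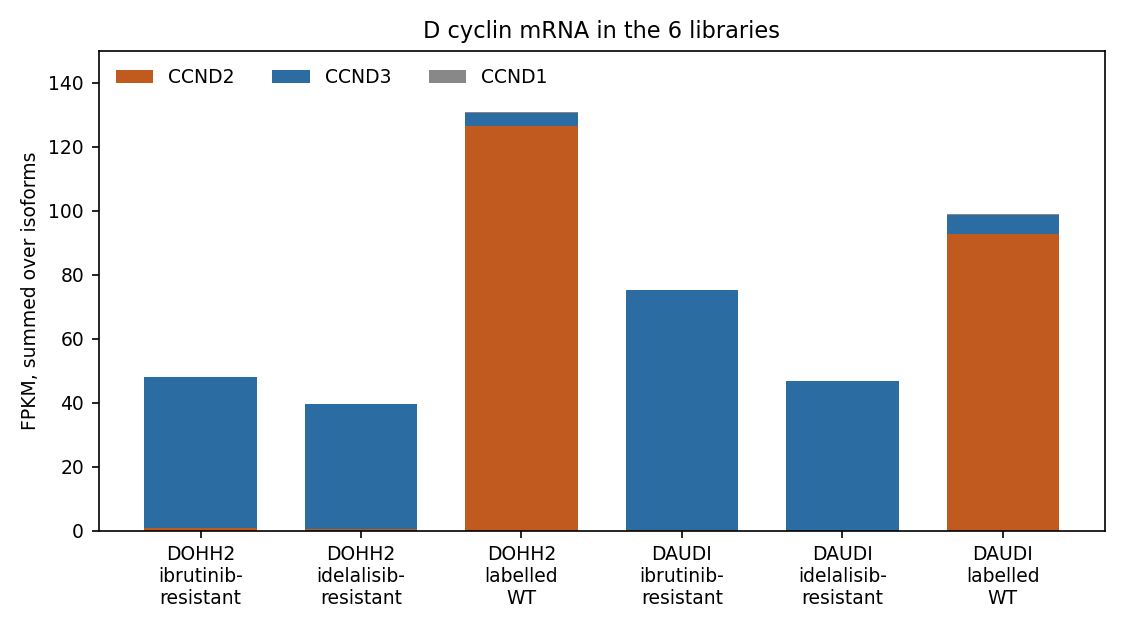
Summed FPKM of the D cyclins in each of the 6 libraries, stacked by gene, with 1 library per bar and no error bar. The 4 resistant bars are CCND3 at 39.0 to 75.1 FPKM, and the bars labelled WT are CCND2 at 127 and 92.7 FPKM; CCND1 is too low to see.

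CCND2 encodes cyclin D2 and lies at chr12:4382902-4414522 (hg19). Its level was 0.689 FPKM in ibrutinib-resistant DOHH2, 0.505 FPKM in idelalisib-resistant DOHH2 and 127 FPKM in the DOHH2 library labelled WT. In DAUDI it was 0.0798 FPKM in the ibrutinib-resistant library, 0.0252 FPKM in the idelalisib-resistant library and 92.7 FPKM in the library labelled WT. All 4 resistant values were below 1 FPKM and both values labelled WT were above 90 FPKM, so the groups did not overlap. How many of all genes tested separate the groups in this way was not counted, here and for the genes below. With both lines as replicates of a state, limma gave a log2 difference of -6.34 ± 0.19 (SE) for ibrutinib-resistant minus labelled WT, with an adjusted p of 0.00425. For idelalisib-resistant minus labelled WT, limma gave -6.46 ± 0.19 (SE), with an adjusted p of 0.00428. CCND2 entered the test only through the libraries labelled WT, since a gene needed 1 FPKM in at least 1 library, and without pseudocount its FPKM was 184 to 3679 times higher in the library labelled WT than in a resistant library of the same line. In bulk RNA, fewer cells with a transcript and less of it per cell cannot be told apart.

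CCND3 encodes cyclin D3 and lies on the minus strand at chr6:41902671-42016610 (hg19). Its level was 47.2 FPKM in ibrutinib-resistant DOHH2, 39.0 FPKM in idelalisib-resistant DOHH2 and 3.996 FPKM in the DOHH2 library labelled WT. In DAUDI it was 75.1 FPKM in the ibrutinib-resistant library, 46.6 FPKM in the idelalisib-resistant library and 5.90 FPKM in the library labelled WT. The lowest resistant value was above both values labelled WT, and ibrutinib-resistant DAUDI, which had 1.42 times the depth of the DAUDI library labelled WT, stood above the other 3 resistant libraries. Against the libraries labelled WT, CCND3 was higher by 3.37 ± 0.18 (SE) on the log2 scale in ibrutinib-resistant cells (limma adjusted p = 0.00493) and by 2.89 ± 0.18 (SE) in idelalisib-resistant cells (limma adjusted p = 0.00556). Within a line, its FPKM was 7.90 to 12.7 times higher in a resistant library than in the one labelled WT.

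CCND1 encodes cyclin D1, the D cyclin of mantle cell lymphoma, and lies at chr11:69455873-69469242 (hg19). It was listed at 0 in both resistant DOHH2 libraries, against 0.263 FPKM in the DOHH2 library labelled WT. The DAUDI values were 0.00953 FPKM in the ibrutinib-resistant library, listed at 0 in the idelalisib-resistant library and at 0.291 FPKM in the library labelled WT. It stayed below the limit of 1 FPKM in every library and was not tested, which left 9 of the 10 genes. D cyclin transcripts as a whole summed to 47.9 and 39.5 FPKM in ibrutinib-resistant and idelalisib-resistant DOHH2, against 131 FPKM in the DOHH2 library labelled WT. In DAUDI the sums were 75.2 and 46.6 FPKM in the ibrutinib-resistant and idelalisib-resistant libraries, against 98.9 FPKM in the library labelled WT. Each resistant sum was below that of its own line's library labelled WT, with no test of these 1-library values.

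Transcripts of CCND3 begin at starts that lie 107058 bases apart on hg19. Isoforms of the far upstream start (NM_001136017 and NM_001136126) held 11.3% of CCND3 FPKM in ibrutinib-resistant DOHH2 and 23.7% in idelalisib-resistant DOHH2, against a level near 0 in the DOHH2 library labelled WT. In DAUDI they held 36.1% in the ibrutinib-resistant library and 45.3% in the idelalisib-resistant library, against 1.89% in the library labelled WT. Both resistant DOHH2 shares were below both resistant DAUDI shares, and in both lines the ibrutinib-resistant share was below the idelalisib-resistant share. In FPKM, the far start gave 5.33 in ibrutinib-resistant DOHH2, 9.26 in idelalisib-resistant DOHH2, 27.1 in ibrutinib-resistant DAUDI and 21.1 in idelalisib-resistant DAUDI, against 0.111 FPKM in the DAUDI library labelled WT. Isoforms of the near start (NM_001760, with NM_001136125 near 0) gave 41.9 FPKM in ibrutinib-resistant DOHH2, 29.8 in idelalisib-resistant DOHH2 and 3.996 in the DOHH2 library labelled WT. In DAUDI the near start gave 48.0 FPKM in the ibrutinib-resistant library, 25.5 in the idelalisib-resistant library and 5.79 in the library labelled WT. Both starts were thus higher in resistant libraries, and near-start levels overlapped between the lines while far-start levels did not. The split rests on the authors' isoform estimates, which have no replicate error here.

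**Figure D2:**
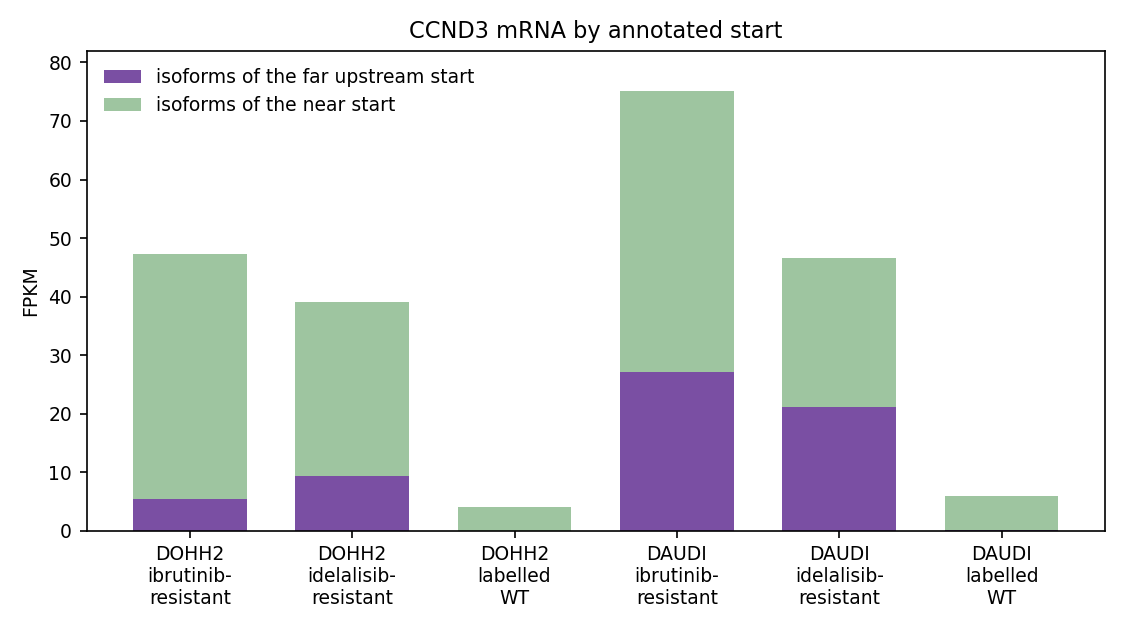
CCND3 FPKM in each of the 6 libraries, stacked by the start of the isoforms, 1 library per bar and no error bar. The far upstream start gave 5.33 and 9.26 FPKM in the resistant DOHH2 bars and 27.1 and 21.1 FPKM in the resistant DAUDI bars, and is not visible in the bars labelled WT.

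The promoter windows nearest to these starts are shown because the libraries differ in how they divide CCND3 between the starts. Both are RefSeq windows on GRCh38.p14, from 250 bases before to 50 after a start site, on the minus strand of chromosome 6 and written 5′ to 3′. The far window is chr6:42048639-42048938, with its start site 206 and 280 bases downstream of the annotated starts of NM_001136126 and NM_001136017. The annotated start of NM_001136126, at 42048894, lies within the window, and that of NM_001136017, at 42048968, lies upstream of its first base. The near window is chr6:41941759-41942058, with its start site 40 bases downstream of the annotated start of NM_001760. Capitals mark a match to the E-box CAGGTG, read on either strand (the reverse is CACCTG), a motif that E proteins such as TCF3 can bind.
CCND3 far start: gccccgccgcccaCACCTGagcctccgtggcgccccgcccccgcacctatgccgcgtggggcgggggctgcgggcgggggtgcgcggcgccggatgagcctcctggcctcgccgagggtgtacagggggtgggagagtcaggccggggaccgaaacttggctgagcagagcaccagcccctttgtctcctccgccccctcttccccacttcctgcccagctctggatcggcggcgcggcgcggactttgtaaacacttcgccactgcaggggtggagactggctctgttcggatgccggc
CCND3 near start: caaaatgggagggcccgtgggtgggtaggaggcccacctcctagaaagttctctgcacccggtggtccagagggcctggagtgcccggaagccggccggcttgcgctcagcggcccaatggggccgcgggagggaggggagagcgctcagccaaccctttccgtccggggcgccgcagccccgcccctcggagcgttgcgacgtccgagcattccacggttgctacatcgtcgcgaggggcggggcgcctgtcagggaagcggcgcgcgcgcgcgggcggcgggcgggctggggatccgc
The far window held 1 match to CAGGTG and the near window held none, while 20.6% of 34943 RefSeq promoter windows of the same length held at least 1. Neither window held the E-box CAGCTG, found in 17.9% of windows, or the E2F motif TTTCCCGC, found in 1.62%. Of the 10 genes, 7 had a RefSeq promoter entry. The match in the far window lies downstream of the annotated start of NM_001136017 and upstream of that of NM_001136126. A match describes the letters in a window only.

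Neither kinase gene passed the test against the libraries labelled WT. CDK4, the kinase partner shared by all D cyclins, lies at chr12:58141510-58146230 (hg19). It was at 34.6 FPKM in ibrutinib-resistant DOHH2, 36.8 FPKM in idelalisib-resistant DOHH2 and 25.2 FPKM in the DOHH2 library labelled WT. Levels in DAUDI were 45.1 FPKM in the ibrutinib-resistant library, 41.4 FPKM in the idelalisib-resistant library and 29.3 FPKM in the library labelled WT. All 4 resistant values lay above both values labelled WT, yet the limma log2 differences of 0.52 (95% interval 0.10 to 0.95, adjusted p = 0.0882) for ibrutinib and 0.51 (0.085 to 0.93, adjusted p = 0.0949) for idelalisib did not pass. TSPAN31 overlaps CDK4 and was at 10.1 to 13.8 FPKM in all 6 libraries.

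CDK6, the partner kinase prominent in blood cells, lies at chr7:92234235-92465941 (hg19). It was at 27.3 FPKM in ibrutinib-resistant DOHH2, 27.4 FPKM in idelalisib-resistant DOHH2 and 8.56 FPKM in the DOHH2 library labelled WT. In DAUDI it was at 18.1 FPKM in the ibrutinib-resistant library, 23.4 FPKM in the idelalisib-resistant library and 12.9 FPKM in the library labelled WT. The resistant values did not overlap with those labelled WT, but the limma differences of 1.01 (0.13 to 1.90, adjusted p = 0.103) for ibrutinib and 1.19 (0.30 to 2.08, adjusted p = 0.0770) for idelalisib did not pass; with the most abundant isoform alone (NM_001259), both did (adjusted p = 0.0450 and 0.0322). CDK4 and CDK6 together came to 61.9 and 64.2 FPKM in ibrutinib-resistant and idelalisib-resistant DOHH2 and to 63.2 and 64.8 FPKM in ibrutinib-resistant and idelalisib-resistant DAUDI, against 33.7 and 42.2 FPKM in the DOHH2 and DAUDI libraries labelled WT. The sum thus spanned 61.9 to 64.8 FPKM over the 4 resistant libraries. CDK6 made up 44.1% and 42.7% of it in ibrutinib-resistant and idelalisib-resistant DOHH2, against 28.7% and 36.1% in ibrutinib-resistant and idelalisib-resistant DAUDI.

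**Figure D3:**
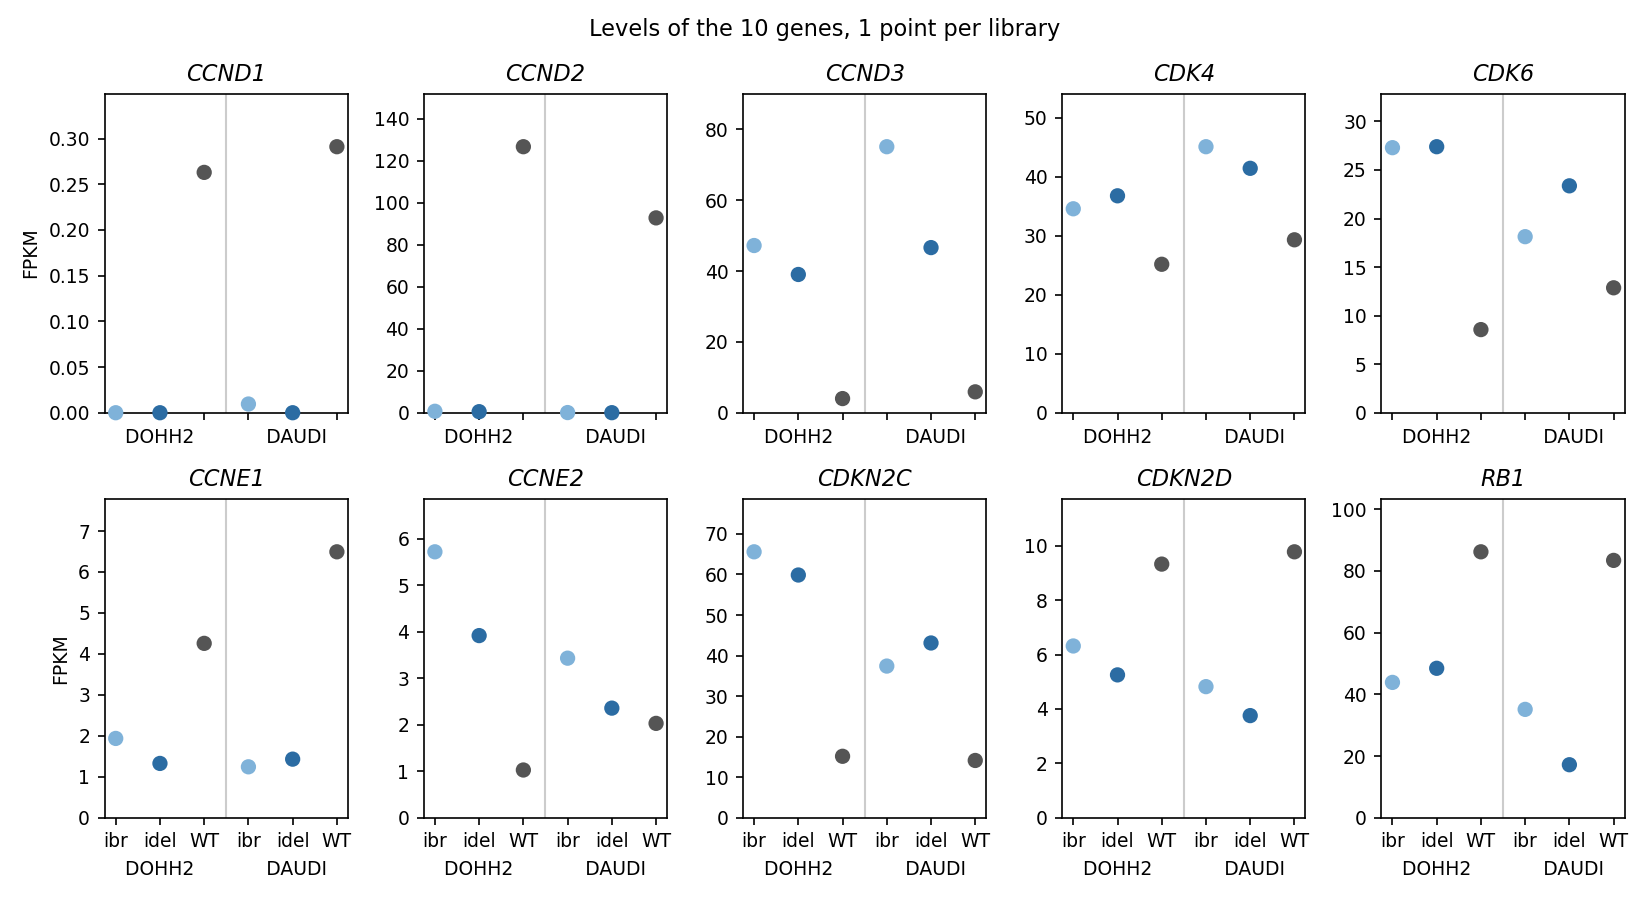
FPKM of each of the 10 genes in each of the 6 libraries, 1 point per library, with a separate linear axis per gene starting at 0 (ibr, ibrutinib-resistant; idel, idelalisib-resistant; WT, labelled WT). CCND3, CDK4, CDK6, CCNE2 and CDKN2C are higher in every resistant library than in both libraries labelled WT, and CCND2, CCNE1, CDKN2D and RB1 are lower. How many of all genes tested separate the groups in this way was not counted.

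Of the INK4 genes, CDKN2C passed as higher in both contrasts with the libraries labelled WT and CDKN2D passed in neither. CDKN2C, which encodes p18INK4c and lies at chr1:51434367-51440309 (hg19), was at 65.6 FPKM in ibrutinib-resistant DOHH2, 59.9 FPKM in idelalisib-resistant DOHH2 and 15.2 FPKM in the DOHH2 library labelled WT. The DAUDI values were 37.4 FPKM in the ibrutinib-resistant library, 43.1 FPKM in the idelalisib-resistant library and 14.1 FPKM in the library labelled WT. Resistant values were all above those labelled WT, and the resistant DOHH2 values were above the resistant DAUDI values. Against the libraries labelled WT, CDKN2C was higher by 1.69 ± 0.23 (SE) on the log2 scale in ibrutinib-resistant cells (limma adjusted p = 0.0202) and by 1.73 ± 0.23 (SE) in idelalisib-resistant cells (limma adjusted p = 0.0195). Without a filter on low values both calls were lost (limma adjusted p = 0.0717 for ibrutinib and 0.0695 for idelalisib).

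CDKN2D, which encodes p19INK4d and lies at chr19:10677138-10679655 (hg19), was at 6.31 FPKM in ibrutinib-resistant DOHH2, 5.25 FPKM in idelalisib-resistant DOHH2 and 9.32 FPKM in the DOHH2 library labelled WT. Levels in DAUDI were 4.82 FPKM in the ibrutinib-resistant library, 3.76 FPKM in the idelalisib-resistant library and 9.77 FPKM in the library labelled WT. Both values labelled WT lay above all resistant values, with limma differences of -0.69 (-1.29 to -0.092, adjusted p = 0.101) for ibrutinib and -0.95 (-1.55 to -0.35, adjusted p = 0.0551) for idelalisib that did not pass. The idelalisib difference passed when libraries were rescaled by the median of ratios (adjusted p = 0.0410) or by the upper quartile (adjusted p = 0.0488). CDKN2C made up 91.2% and 91.9% of the summed FPKM of CDKN2C and CDKN2D in ibrutinib-resistant and idelalisib-resistant DOHH2, against 61.9% in the DOHH2 library labelled WT. In DAUDI it made up 88.6% and 92.0% in the ibrutinib-resistant and idelalisib-resistant libraries, against 59.1% in the library labelled WT. The sum of CDKN2C and CDKN2D per unit of D cyclin FPKM was 1.501 and 1.65 in ibrutinib-resistant and idelalisib-resistant DOHH2, against 0.187 in the DOHH2 library labelled WT. In DAUDI this ratio was 0.562 and 1.005 in the ibrutinib-resistant and idelalisib-resistant libraries, against 0.242 in the library labelled WT. The ratio was higher in every resistant library than in the one labelled WT of its line. It leaves out the other INK4 genes. Of these, CDKN2A was at 16.8 and 14.2 FPKM in ibrutinib-resistant and idelalisib-resistant DAUDI and listed at 0 in every other library.

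RB1, the pocket protein that the kinases phosphorylate, lies at chr13:48877883-49056026 (hg19). It was at 43.9 FPKM in ibrutinib-resistant DOHH2, 48.5 FPKM in idelalisib-resistant DOHH2 and 86.2 FPKM in the DOHH2 library labelled WT. In DAUDI it was at 35.1 FPKM in the ibrutinib-resistant library, 17.2 FPKM in the idelalisib-resistant library and 83.4 FPKM in the library labelled WT. All resistant values lay below both values labelled WT, with idelalisib-resistant DAUDI the lowest, but limma gave -1.09 (-2.19 to 0.0076, adjusted p = 0.133) for ibrutinib and -1.52 (-2.61 to -0.42, adjusted p = 0.0727) for idelalisib, neither of which passed. LPAR6, which lies within RB1, was listed at 0 in all 6 libraries.

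CCNE1 was the more abundant E cyclin in both libraries labelled WT, and CCNE2 in all 4 resistant libraries. CCNE1, the E cyclin that activates CDK2 late in G1, lies at chr19:30302901-30315215 (hg19) and was at 1.94 FPKM in ibrutinib-resistant DOHH2, 1.33 FPKM in idelalisib-resistant DOHH2 and 4.26 FPKM in the DOHH2 library labelled WT. The DAUDI values were 1.25 FPKM in the ibrutinib-resistant library, 1.43 FPKM in the idelalisib-resistant library and 6.49 FPKM in the library labelled WT. The groups did not overlap, and CCNE1 was lower by 1.40 ± 0.29 (SE) on the log2 scale in idelalisib-resistant cells (limma adjusted p = 0.0476). In ibrutinib-resistant cells the difference of -1.29 (-2.11 to -0.47) had an adjusted p of 0.0556, and passed in limma when libraries were rescaled by the median of ratios (adjusted p = 0.0494), without the line block (adjusted p = 0.0368) and without the DOHH2 library labelled WT (adjusted p = 0.0406). The idelalisib call lies close to the threshold, and was lost with a pseudocount of 0.1 (adjusted p = 0.0532), a filter at 5 FPKM (adjusted p = 0.0669), no filter (adjusted p = 0.161), the most abundant isoforms only (adjusted p = 0.0512) and the DAUDI library labelled WT left out (adjusted p = 0.0728).

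CCNE2, the other E cyclin, lies at chr8:95892453-95907482 (hg19), where INTS8 overlaps it. It was at 5.72 FPKM in ibrutinib-resistant DOHH2, 3.92 FPKM in idelalisib-resistant DOHH2 and 1.03 FPKM in the DOHH2 library labelled WT. Levels in DAUDI were 3.43 FPKM in the ibrutinib-resistant library, 2.36 FPKM in the idelalisib-resistant library and 2.03 FPKM in the library labelled WT. Resistant values were above those labelled WT, by little in idelalisib-resistant DAUDI, and limma differences of 1.14 (0.072 to 2.20, adjusted p = 0.116) for ibrutinib and 0.71 (-0.35 to 1.78, adjusted p = 0.260) for idelalisib did not pass. INTS8 was at 25.4 to 34.9 FPKM in the resistant libraries and at 16.9 and 17.9 FPKM in those labelled WT; whether its reads enter the CCNE2 values was not tested. CCNE1 made up 25.3% of E cyclin FPKM in both resistant DOHH2 libraries, against 80.5% in the DOHH2 library labelled WT. In DAUDI it made up 26.6% and 37.8% in the ibrutinib-resistant and idelalisib-resistant libraries, against 76.2% in the library labelled WT.

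Across the contrasts, 3 of the 9 genes tested passed for ibrutinib-resistant minus labelled WT (CCND3 and CDKN2C higher, CCND2 lower), where 19.7% of all 12337 genes tested passed, 9.99% higher and 9.67% lower. For idelalisib-resistant minus labelled WT, 4 of 9 passed (the same 3 and CCNE1, lower), where 19.6% of all genes passed, 9.19% higher and 10.4% lower. The median log2 difference of the 9 genes was 0.52 for ibrutinib and 0.51 for idelalisib, beside 0.14 and 0.086 over all genes tested. These contrasts share the libraries labelled WT, and limma treats the 2 lines as replicates. With the line as a block, its spread is only how far the differences between states depart from each other in the 2 lines. The p-values therefore measure no spread between replicate cultures. The libraries labelled WT lack most of the line difference of the resistant libraries, and this mismatch enters the same spread. The calls needed all 4 resistant libraries: leaving out any 1 of them left 0 genes passing in either contrast, with adjusted p between 0.0514 and 0.135 for CCND2 and CCND3. Those 2 genes passed in each fit that kept all 4 resistant libraries.

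**Figure D4:**
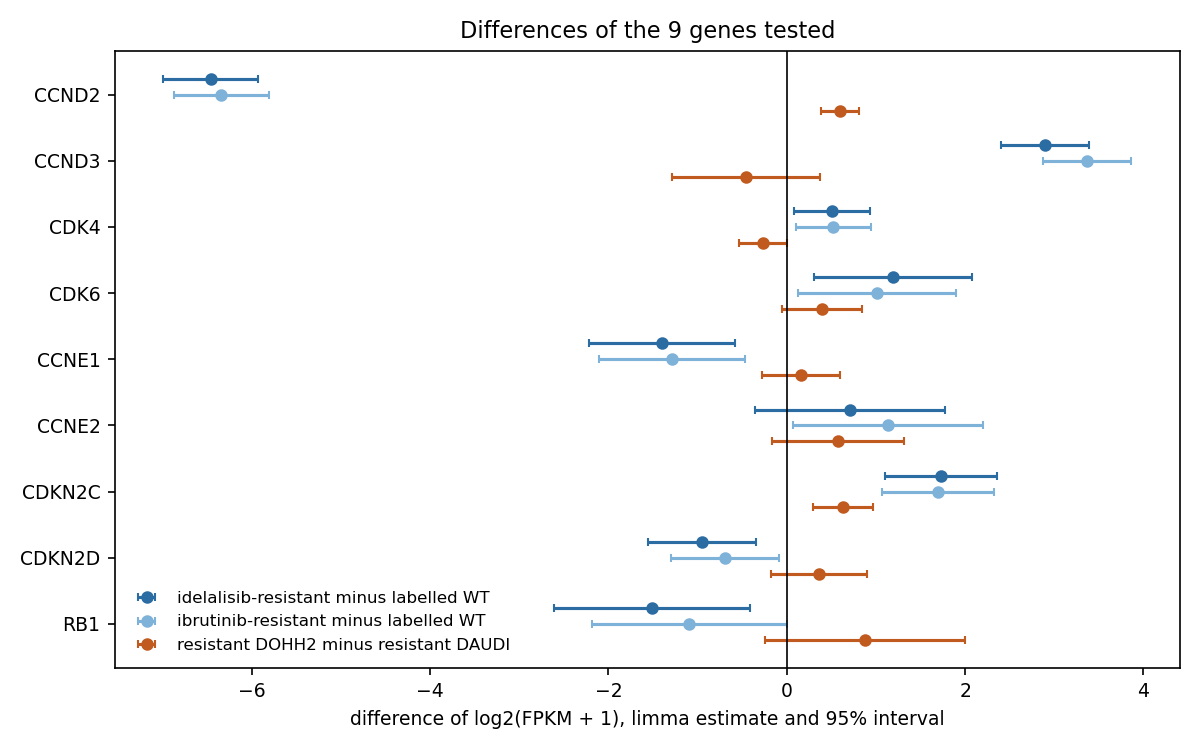
Differences of log2(FPKM + 1) for the 9 genes tested, as limma estimates with 95% intervals, for the idelalisib-resistant and ibrutinib-resistant libraries minus those labelled WT (6 libraries) and for resistant DOHH2 minus resistant DAUDI (4 libraries). CCND2 lies at -6.46 and -6.34 and CCND3 at 2.89 and 3.37 in the contrasts with the libraries labelled WT, while all estimates between the lines lie between -0.45 and 0.88.

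Within a line, where 1 library stands against 1 and no test is possible, a gene was counted when it differed by at least 1 on the log2 scale. In DOHH2, 5 of 9 genes differed in the ibrutinib-resistant library (CCND3, CDK6, CCNE2 and CDKN2C higher, CCND2 lower), beside 30.6% of all genes, 14.9% higher and 15.7% lower. In the idelalisib-resistant DOHH2 library 6 of 9 differed (CCNE1 was also lower), beside 31.8% of all genes, 16% higher and 15.7% lower. In DAUDI, 5 of 9 differed in the ibrutinib-resistant library (CCND3 and CDKN2C higher, CCND2, CCNE1 and RB1 lower), beside 34.9% of all genes, 20.2% higher and 14.6% lower. In the idelalisib-resistant DAUDI library 6 of 9 differed (CDKN2D was also lower), beside 31.1% of all genes, 15.3% higher and 15.8% lower. CDK6 and CCNE2 reached the limit in both resistant DOHH2 libraries and in neither resistant DAUDI library, and RB1 in both resistant DAUDI libraries and in neither resistant DOHH2 library. Whether the lines differ in these contrasts was not tested. For CDK6 and CCNE2 this split depended on which library labelled WT was subtracted. With that of the other line in its place, a comparison added after seeing the data, CDK6 differed by 1.03 with either drug in DOHH2, and by 1.001 with ibrutinib and 1.35 with idelalisib in DAUDI. CCNE2 then differed by 1.15 with ibrutinib and 0.70 with idelalisib in DOHH2, and by 1.13 with ibrutinib and 0.73 with idelalisib in DAUDI. For CDK6 the log2 difference from the library labelled WT was 1.57 with either drug in DOHH2, and 0.46 with ibrutinib and 0.81 with idelalisib in DAUDI. For RB1 it was -0.96 with ibrutinib and -0.82 with idelalisib in DOHH2, and -1.22 with ibrutinib and -2.21 with idelalisib in DAUDI.

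The drugs were then compared directly. In ibrutinib-resistant minus idelalisib-resistant cells, 0 of 9 genes passed limma, each with an adjusted p of 1 and 0 with an unadjusted p under 0.05; over all genes 1 passed, or 0.00811%, and 71 had an unadjusted p under 0.05. CCND3 had the lowest unadjusted p of the 9, with a difference of 0.47 (-0.025 to 0.97), and was higher in the ibrutinib-resistant library in both lines. RB1 had a difference of 0.42 (-0.67 to 1.52). These intervals leave room for differences in either direction for 9 of 9 genes. Within a line, 0 of 9 genes differed by at least 1 between the drugs, beside 1.08% of all genes in DOHH2 and 3.5% in DAUDI, and RB1 in DAUDI came closest, at 35.1 FPKM in the ibrutinib-resistant library against 17.2 FPKM in the idelalisib-resistant library, a log2 difference of 0.99.

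The lines were compared over their resistant libraries alone, 2 of each, which leaves the libraries labelled WT out. The 2 libraries of a line are resistant to different drugs and are not replicate cultures. Here and in later contrasts of the lines, the errors thus measure the spread between ibrutinib-resistant and idelalisib-resistant cultures of a line. Of the 9 genes, 2 passed limma, both higher in DOHH2, where 27.3% of all genes passed, 13.1% higher and 14.2% lower. CDKN2C was at 65.6 and 59.9 FPKM in resistant DOHH2, against 37.4 and 43.1 FPKM in resistant DAUDI, a log2 difference of 0.63 ± 0.11 (SE, limma adjusted p = 0.0348). CCND2 was at 0.689 and 0.505 FPKM in resistant DOHH2, against 0.0798 and 0.0252 FPKM in resistant DAUDI, a log2 difference of 0.60 ± 0.074 (SE, limma adjusted p = 0.0165). All 4 CCND2 values were below 1 FPKM, and both calls were lost without a filter on low values. The CDKN2C call was also lost under either rescaling, with drug as a block, and with any 1 of the 4 libraries left out (limma adjusted p = 0.0553 to 0.223), and the CCND2 call with any 1 left out except idelalisib-resistant DOHH2 (limma adjusted p = 0.0555 to 0.0794). CCND3 did not pass, with -0.45 (-1.28 to 0.37, adjusted p = 0.305), and its estimate was 0.011 when only its most abundant isoform was counted. The other genes had estimates of -0.27 for CDK4 (adjusted p = 0.115), 0.39 for CDK6 (0.149), 0.36 for CDKN2D (0.226), 0.88 for RB1 (0.180), 0.16 for CCNE1 (0.465) and 0.58 for CCNE2 (0.182), all as limma adjusted p. The median of the 9 was 0.39, beside -0.039 over all genes.

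The shares of each family in the resistant libraries were then set side by side, with SDs that again span cultures resistant to different drugs. CCND2 held 1.36% ± 0.113 of D cyclin FPKM in resistant DOHH2 and 0.0801% ± 0.0368 in resistant DAUDI (SD, n = 2 each; exact permutation p = 0.333, two-sided). With 2 libraries against 2, 0.333 is the smallest p that this test can give, so no share can pass. CDK6 held 43.4% ± 1.01 of the kinase sum in resistant DOHH2 and 32.4% ± 5.22 in resistant DAUDI (SD, n = 2 each; exact permutation p = 0.333). The D cyclin sum was 43.7 ± 5.91 FPKM in resistant DOHH2 and 60.9 ± 20.2 FPKM in resistant DAUDI (SD, n = 2 each), with overlapping values and an exact permutation p of 0.667.

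Other genes of the pathway were read from lists in the same fits. Of other CDK inhibitors, 4 of 6 were tested and 0 passed limma in either contrast with the libraries labelled WT, where 0 had an unadjusted p under 0.05. Over all genes, 19.7% passed for ibrutinib and 19.6% for idelalisib. CDKN2A, which encodes the INK4 protein p16INK4a and the p53 regulator ARF, was listed at 0 in all 3 DOHH2 libraries and in the DAUDI library labelled WT, and stood at 16.8 and 14.2 FPKM in ibrutinib-resistant and idelalisib-resistant DAUDI. CDKN2B, the p15INK4b gene, was not above 0.698 FPKM in any library. CDKN1B, the p27 gene, was at 20.3 and 21.1 FPKM in ibrutinib-resistant and idelalisib-resistant DOHH2, against 7.56 and 4.23 FPKM in ibrutinib-resistant and idelalisib-resistant DAUDI, and passed as higher in resistant DOHH2 (limma difference 1.70, adjusted p = 0.0300). In this contrast of the lines, 2 genes of the list passed as lower in resistant DOHH2: CDKN2A (limma adjusted p = 0.00167) and CDKN3, a CDK-directed phosphatase gene (-0.97, limma adjusted p = 0.0237). Over all genes, 13.1% passed as higher and 14.2% as lower in this contrast. CDKN2A entered the test only through the resistant DAUDI libraries, since a gene needed 1 FPKM in at least 1 library. CDKN3 was at 19.9 and 22.4 FPKM in ibrutinib-resistant and idelalisib-resistant DOHH2, against 46.7 and 38.2 FPKM in ibrutinib-resistant and idelalisib-resistant DAUDI. CDKN1A, the p21 gene, did not pass in any contrast.

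Of 12 E2F, DP and pocket protein genes, 5 passed as higher in ibrutinib-resistant cells and 4 in idelalisib-resistant cells, and 0 as lower. Over all genes, 9.99% and 9.19% passed as higher and 9.67% and 10.4% as lower. The list medians were 0.72 and 0.68. E2F2, an activator E2F, was at 11.6 and 9.01 FPKM in ibrutinib-resistant and idelalisib-resistant DOHH2, against 1.65 FPKM in the DOHH2 library labelled WT. In DAUDI E2F2 was at 16.3 and 19.2 FPKM in the ibrutinib-resistant and idelalisib-resistant libraries, against 1.23 FPKM in the library labelled WT. E2F2 was higher by 2.60 with ibrutinib and 2.55 with idelalisib (limma adjusted p = 0.0216 and 0.0224). E2F5, a repressor E2F, was higher by 2.14 and 2.07 (limma adjusted p = 0.00628 and 0.00645), and TFDP2, a DP partner of E2Fs, by 1.92 and 1.70 (limma adjusted p = 0.0315 and 0.0408). TFDP1 also passed as higher with both drugs, and E2F1 passed with ibrutinib (1.61, limma adjusted p = 0.0323) and had 1.11 with idelalisib (limma adjusted p = 0.0670).

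Of 20 E2F target genes tested, 4 passed with each drug, beside 19.7% of all genes with ibrutinib and 19.6% with idelalisib. The same shares stand beside the counts of mitotic, CDK2 and turnover genes below. Of the 4 E2F targets, 3 passed as higher with either drug, among them the licensing factor CDT1 and the GINS subunit GINS2. The helicase subunit MCM5 passed as lower with either drug. The list medians were 0.33 with ibrutinib and 0.050 with idelalisib. MCM5 was at 29.2 and 21.5 FPKM in ibrutinib-resistant and idelalisib-resistant DOHH2, against 108 FPKM in the DOHH2 library labelled WT, and at 22.9 and 20.6 FPKM in ibrutinib-resistant and idelalisib-resistant DAUDI, against 105 FPKM in the DAUDI library labelled WT. Of 15 mitotic genes, 0 passed limma with either drug, although 4 with ibrutinib and 5 with idelalisib had an unadjusted p under 0.05; the medians were -0.047 and -0.11. MKI67, the Ki-67 proliferation marker, was at 19.7 to 30.4 FPKM in the resistant libraries and at 20.2 and 27.6 FPKM in those labelled WT, which overlap. Of 11 CDK2 and CDK-activating kinase genes tested, 1 passed with ibrutinib (CDC25B, a phosphatase that activates CDKs, 2.34, adjusted p = 0.0471) and 0 with idelalisib (2 with an unadjusted p under 0.05), where CDC25B had 2.02 (adjusted p = 0.0635). Of 12 cyclin turnover genes tested, USP2, a deubiquitinase of cyclin D1, passed as higher with both drugs, at 2.60 and 2.26 (limma adjusted p = 0.0209 and 0.0272). USP2 entered the test only through the resistant libraries, since it was at 0.346 and 0.377 FPKM in the DOHH2 and DAUDI libraries labelled WT.

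Of 14 B cell regulators of D cyclin genes, 5 passed as higher and 2 as lower with ibrutinib, beside 9.99% and 9.67% of all genes. With idelalisib, 5 passed as higher and 3 as lower, beside 9.19% and 10.4% of all genes. The list medians were 0.77 and 0.78. BCL6, the germinal centre repressor, for which CCND2 is a known target, was at 110 and 121 FPKM in ibrutinib-resistant and idelalisib-resistant DOHH2, against 9.07 FPKM in the DOHH2 library labelled WT. In DAUDI BCL6 was at 50.9 and 44.0 FPKM in the ibrutinib-resistant and idelalisib-resistant libraries, against 7.76 FPKM in the library labelled WT. BCL6 was higher by 3.02 with ibrutinib and 2.98 with idelalisib (limma adjusted p = 0.0164 and 0.0163). The forkhead genes FOXO1 and FOXO3 and the signal transducer STAT5B passed as higher with both drugs. TCF3, the gene of E proteins E12 and E47, passed as higher with ibrutinib (limma adjusted p = 0.0441) and had 0.92 with idelalisib (limma adjusted p = 0.0522). MYC passed as higher with idelalisib (1.19, limma adjusted p = 0.0367) and had 0.74 with ibrutinib (limma adjusted p = 0.0914). ID2, an inhibitor of E proteins, was lower, with differences of -2.10 and -2.58 (limma adjusted p = 0.0280 and 0.0195). TCF4, another E protein gene, was lower, with -1.98 and -2.20 (limma adjusted p = 0.0224 and 0.0189). FOXP1 passed as lower with idelalisib (-1.22, limma adjusted p = 0.0445) and had -1.04 with ibrutinib (limma adjusted p = 0.0608). ID3, another inhibitor of E proteins, differed between the lines, with 11.8 and 12.0 FPKM in ibrutinib-resistant and idelalisib-resistant DOHH2, against 83.6 and 126 FPKM in ibrutinib-resistant and idelalisib-resistant DAUDI (limma difference -3.01, adjusted p = 0.00656).

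The genes whose pattern over the 6 libraries was most like that of each D cyclin were sought among 8924 genes, by the mean absolute distance of centred log2(FPKM + 1). For CCND2 they were SLC12A7, a potassium chloride cotransporter, at a distance of 0.24, TUBB6, a beta tubulin, at 0.27, and SCARB2, a lysosomal membrane protein, at 0.29. SLC12A7 was at 0.156 and 0.0333 FPKM in ibrutinib-resistant and idelalisib-resistant DOHH2, against 115 FPKM in the DOHH2 library labelled WT, and at 0.0343 and 0.00521 FPKM in ibrutinib-resistant and idelalisib-resistant DAUDI, against 108 FPKM in the DAUDI library labelled WT. For CCND3 they were WIPF1, an actin regulator, at 0.11, APBB2, an adaptor protein gene, at 0.14, and DNAJC10, a chaperone of the endoplasmic reticulum, at 0.16. WIPF1 was at 62.4 and 65.3 FPKM in ibrutinib-resistant and idelalisib-resistant DOHH2, against 5.80 FPKM in the DOHH2 library labelled WT, and at 89.5 and 66.7 FPKM in ibrutinib-resistant and idelalisib-resistant DAUDI, against 7.98 FPKM in the DAUDI library labelled WT.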

How the data were processed

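A polyA library was made from each of 6 cultures with a directional mRNA kit per the labels' protocols. Per the submitters' processing notes, bcl2fastq, cutadapt, TopHat2, Cufflinks and the build hg19 were used; the sources used here state no version and no strand setting. Deposited tables list the authors' FPKM for 43490 RefSeq isoforms per library and, per the file headers, a coverage signal, which was used for relative depth, 0.936 to 1.42 times that of the DAUDI library labelled WT. Absolute depth is unknown, and no interval from counts is given.

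FPKM were summed per gene symbol (528 isoforms without a symbol, 0.636% to 2.75% of FPKM, were left out). Differences are of log2(FPKM + 1), which understates changes of weakly expressed genes. Genes at 1 FPKM or more in at least 1 library were tested (12337; 10 genes with a failed estimate were left out). limma 3.58.1 in R 4.3.3 (trended empirical Bayes, two-sided) was fitted over all genes tested: on the 6 libraries with the cell line as a block, and on the 4 resistant libraries for the contrast of lines, each with 2 residual degrees of freedom. A gene passed where its Benjamini-Hochberg adjusted p was under 0.05. Exact permutation tests were run with scipy 1.17.1. The deposited bounds of the FPKM were not used, since 1670 to 2343 values in each library fall outside them. The fit was also run on simulated data with independent noise and, for the contrasts of states, the same line difference in every state. The libraries labelled WT lack most of that line difference, so the simulation does not show how the fit behaves with them.

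The text names the 10 genes, up to 4 genes of each list with the largest difference in a comparison, and the 3 genes nearest in pattern to CCND2 and to CCND3; FOXO3, FOXP1 and CDKN2B fall outside this rule and were chosen after their values were seen. The members, lists and settings were chosen with earlier results of these data known. Other settings were other pseudocounts, filters and scalings, the most abundant isoform only, no trend, other blocks and leaving out each library; the other line's library labelled WT as the comparison was added after seeing the data.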

Additional observations from a re-analysis of the deposited data

Results flagged for a closer look

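In 4 of the 9 genes tested, the ibrutinib-resistant and idelalisib-resistant libraries differed in opposite directions in the lines. How many of all genes tested do so was not counted, so this count does not set these genes apart. The log2 difference of ibrutinib-resistant minus idelalisib-resistant was -0.087 in DOHH2 and 0.12 in DAUDI for CDK4, 0.34 in DOHH2 and -0.12 in DAUDI for CCNE1, 0.13 in DOHH2 and -0.20 in DAUDI for CDKN2C, and -0.14 in DOHH2 and 0.99 in DAUDI for RB1. Each value compares 1 library with 1, and the difference between the lines was not tested. For CDK4 the DAUDI value turned to -0.048 when libraries were rescaled by the median of ratios and to -0.055 by the upper quartile, so that its signs no longer differed.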

How the results depend on the processing

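With 1 library per group there is no replicate error within a line. The limma contrasts of states pair libraries by cell line, as a block. A pairing by replicate number could not be made, since each group has 1 library and the labels carry no such numbers. Genes counted within a line against the library labelled WT numbered 3775 to 4301, and with a pseudocount of 5 they numbered 1841 and 1938 in ibrutinib-resistant and idelalisib-resistant DOHH2 and 2185 and 1825 in ibrutinib-resistant and idelalisib-resistant DAUDI. Between the drugs, 133 genes in DOHH2 and 432 in DAUDI were counted; these became 350 and 817 with a pseudocount of 0.1 (with 1 of the 9 genes in DAUDI) and 70 and 177 with a pseudocount of 5. With the other line's library labelled WT as the comparison, 6, 5, 7 and 7 of the 9 genes were counted in ibrutinib-resistant DOHH2, idelalisib-resistant DOHH2, ibrutinib-resistant DAUDI and idelalisib-resistant DAUDI.

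In limma, 2426 genes passed for ibrutinib-resistant and 2419 for idelalisib-resistant minus labelled WT, and 1403 in each without a filter. Leaving out 1 library gave 0 to 2926 and 0 to 2860 genes, with 0 to 5 of the 9 in each; the 0 came with each resistant library left out. Rescaling by the median of ratios moved the median difference of all genes to -0.033 with ibrutinib and -0.031 with idelalisib, against 0.14 and 0.086. For ibrutinib-resistant minus idelalisib-resistant, the 1 passing gene became 0 without a filter, 0 with the 4 resistant libraries only, 2 with a filter at 5 FPKM and 3 without the line block, and leaving out 1 library gave 0. Between the lines, 3362 genes passed, with 1977 without a filter, 1914 with drug as a block and 742 to 2985 leaving out 1 library. Of the 9 genes, 2 passed, with 0 without a filter, 1 under either rescaling, 1 with drug as a block and 0 to 1 leaving out 1 library. The causes were not tested.

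With the most abundant isoform only, CCND2 held 1.62% and 1.67% of D cyclin FPKM in ibrutinib-resistant and idelalisib-resistant DOHH2 and 0.166% and 0.0988% in ibrutinib-resistant and idelalisib-resistant DAUDI, and CCND3 held 98.4% and 98.3% in ibrutinib-resistant and idelalisib-resistant DOHH2 and 99.8% in ibrutinib-resistant DAUDI. Signs turned for ibrutinib-resistant minus idelalisib-resistant in CDK4 (-0.043 and -0.047 under median of ratios and upper quartile). Leaving out 1 library gave -0.075 to 0.11 for CDK4, -0.54 to 0.18 for CDK6, -0.23 to 0.45 for CCNE1, -0.29 to 0.22 for CDKN2C and -0.21 to 1.06 for RB1. For resistant DOHH2 minus resistant DAUDI, signs turned in CCND3 (0.011, most abundant isoform only) and CCNE1 (-0.0057 to 0.33 leaving out 1 library). None of these passed in the fit reported.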
